A study of Mus musculus with 12 samples.

Results

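Mitochondrial ribosomal protein genes were followed in mouse marginal zone B cells, spleen B lymphocytes that respond early to blood-borne antigen, from Trpm5-/- and wild-type mice. Members were the symbols in the deposited files that begin with Mrpl or Mrps followed by a digit, leaving out pseudogene symbols that contain -ps. There were 77 of them among 24346 symbols, 48 named Mrpl and 29 named Mrps, and all 77 passed the filter of at least 1 FPKM in at least 2 libraries that left 10797 genes for testing.

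TRPM5 is a calcium-activated cation channel of the plasma membrane. Cells of both genotypes were kept for 4 h with lipopolysaccharide (LPS, 10 µg/mL), with anti-IgM (an antibody to the IgM part of the antigen receptor, 10 µg/mL) or without stimulus, and RNA was sequenced from 2 libraries of each of the 6 groups, 12 in all. LPS comes from the outer membrane of bacteria and is sensed by a Toll-like receptor, whereas the antibody stimulates through the antigen receptor. The labels give neither the age and sex of the mice nor the deleted part of Trpm5, and they leave it unsaid whether libraries within a group had different mice or cultures as their source. The p-values hence rest on the spread between libraries alone, and that spread may be technical.

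Mitochondria keep a ribosome of their own, which translates the few membrane proteins of the respiratory chain and ATP synthase that mitochondrial DNA encodes. Its RNA comes from mitochondrial DNA, while its proteins are encoded in the nucleus, made in the cytosol and imported. Proteins named Mrps mostly build the small subunit, which reads the mRNA, and proteins named Mrpl build the large subunit, which joins amino acids. Exceptions are Mrps30 and Mrps18a, which sit in the large subunit, and Mrps36, which is a subunit of the oxoglutarate dehydrogenase complex of the citric acid cycle. By this assignment 50 of the 77 belonged to the large subunit, 26 to the small one and 1 to neither. Naive B cells that meet a stimulus enlarge before they divide, and mitochondrial growth is part of that enlargement.

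Values are FPKM (fragments counted per unit of transcript length and of library size), a scale on which genes of different length can be compared. The 12 libraries summed to between 563461 and 805373 FPKM, highest with LPS, and their relative depth, read from the size of 1 fragment, ranged from 0.783 to 1.28 times that of Trpm5-/- unstimulated replicate 1. The number of reads per library is unknown here. Replicates of a group correlated at Pearson r of 0.982 to 0.991 across the 77 genes, on the log2(FPKM + 1) scale. Trpm5 itself lay at 0.0303 FPKM or less in the Trpm5-/- libraries, listed at 0 in 3 of them, and between 0.0196 and 0.434 FPKM in the wild-type libraries, so the 2 ranges overlapped and this gene checks the labels only weakly. Of the B cell markers, Cd79a ranged from 506 to 1799 FPKM in Trpm5-/- and from 581 to 2121 FPKM in wild-type libraries. Pax5 was lowest, at 2.60 to 10.86 FPKM over all libraries, and Cd22 lay at 9.34 to 15.67 FPKM with LPS. The T cell marker Cd3e did not exceed 0.188 FPKM, but Lck of the same list had 13.5 to 66.25 FPKM. Natural killer cell and platelet markers summed to 2.37 FPKM or less in any library, and erythroid markers to 100.5 to 680.7 FPKM.

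The 77 genes together took up 0.915% to 0.942% of a library's FPKM with LPS, 0.869% to 0.949% with anti-IgM and 0.725% to 0.793% without stimulus. In Trpm5-/- cells their FPKM summed to 7578 and 6862 with LPS, 6072 and 6281 with anti-IgM, and 4597 and 4646 without stimulus. In wild-type cells the sums were 7004 and 7119 with LPS, 5652 and 5558 with anti-IgM, and 4369 and 4087 without stimulus. In these sums every stimulated library was above every unstimulated one, and every LPS library was above every anti-IgM one. As shares of a library's FPKM, LPS (0.941% and 0.916%) and anti-IgM (0.897% and 0.949%) overlapped in Trpm5-/- cells. In wild-type cells the shares were 0.915% and 0.942% with LPS against 0.910% and 0.869% with anti-IgM. In bulk RNA a larger share of cells that express a gene and more RNA of it per cell cannot be told apart.

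Without stimulus the most abundant members in Trpm5-/- cells were Mrps18c (215 ± 4.69 FPKM, SD, n = 2), Mrps21 (204 ± 7.69) and Mrpl23 (168 ± 14.5). In wild-type cells the same symbols led, in the order Mrps21 (202 ± 1.34), Mrps18c (186 ± 22.1) and Mrpl23 (137 ± 12.9). The libraries of Mrps18c and Mrps21 overlapped in wild-type cells. They were separate in Trpm5-/- cells, at 219 and 212 FPKM for Mrps18c against 199 and 209.9 for Mrps21. Mrps18c and Mrps21 are proteins of the small subunit and Mrpl23 lies near the exit of the large subunit's peptide tunnel. Least abundant in every group were drawn from Mrpl11, Mrps25, Mrpl19 and Mrpl41, with Mrps25 last under either stimulus. Under LPS the order changed at the top: Mrpl12 led in Trpm5-/- cells (311 ± 13.3 FPKM) and in wild-type cells (296 ± 27.9 FPKM), followed by Mrps18b and Mrps21 in Trpm5-/- cells and by Mrps21 and Mrps18b in wild-type cells.

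LPS raised most of the 77 genes in both genotypes. Differences below are on the log2(FPKM + 1) scale with the standard error of a limma model over all 12 libraries, and a gene counts as called where its Benjamini-Hochberg adjusted p, over all 10797 genes, is under 0.05. In Trpm5-/- cells 58 were called higher and 3 lower with LPS, where 34.8% and 33.8% of all tested genes were called higher and lower. In wild-type cells 62 were called higher and 2 lower, against 35.0% and 34.4% of all tested genes. The median difference was 0.68 in Trpm5-/- cells and 0.74 in wild-type cells, beside -0.02 over all tested genes in either genotype. On the FPKM + 1 scale 18 members were at least 2-fold higher in Trpm5-/- cells and 21 in wild-type cells. The share of all tested genes at 2-fold was not counted. The upper quartile of the differences was 0.94 for members and 0.58 for all tested genes in Trpm5-/- cells. In wild-type cells it was 1.09 for members and 0.59 for all tested genes. Of the 58 and 62 called higher, 57 were called in both genotypes. For this and the later counts of calls shared by both genotypes, the share over all tested genes was not counted.

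**Figure D1:**
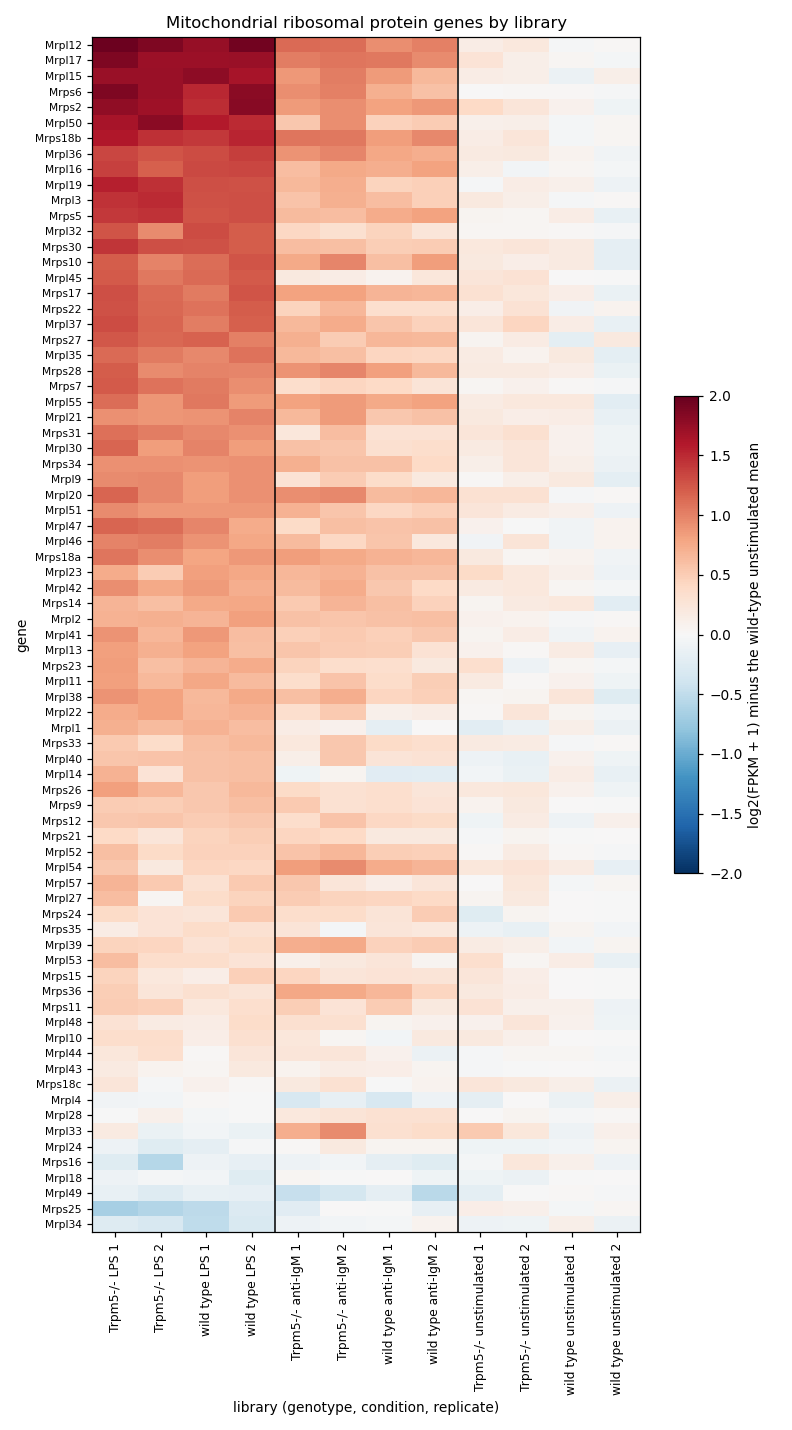
Level of each of the 77 genes (rows, ordered by the LPS response in wild-type cells) in each of the 12 libraries (columns, grouped by condition, with Trpm5-/- left of wild type), as log2(FPKM + 1) minus the mean of the wild-type unstimulated libraries. LPS columns are red for most rows, anti-IgM columns are paler, and the lowest rows, among them Mrps25 and Mrpl34, are blue with LPS.

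Mrpl12 (chr11:120484613-120489065, plus strand, mm10, GENCODE M21, as for all positions here), the protein that forms the stalk of the large subunit and helps to recruit translation factors, had the smallest p of all members with LPS in both genotypes. It reached 320.1 and 301 FPKM with LPS, 181 and 178 with anti-IgM, and 91.0 and 95.0 without stimulus in Trpm5-/- cells. Wild-type cells held 276 and 315 FPKM with LPS, 158 and 166 with anti-IgM, and 80.4 and 83.5 without stimulus. None of these ranges overlapped between conditions within a genotype. Mrpl12 shares 13.05% of its exon bases with Gm16755 on the opposite strand, whose part in these values was not tested. The LPS difference was 1.73 ± 0.07 in Trpm5-/- cells (limma, adjusted p = 7.0e-09) and 1.84 ± 0.07 in wild-type cells (adjusted p = 4.2e-09), which is 3.57-fold in wild type on the FPKM + 1 scale.

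Mrps18b, Mrpl36, Mrpl17 and Mrps6 stood next to it. Mrps18b, a small subunit protein (chr17:35910379-35916389, minus strand), had 279.9 and 254 FPKM with LPS against 101 and 108 without stimulus in Trpm5-/- cells, and 244 and 265 against 89.0 and 93.7 in wild-type cells. Its LPS difference was 1.35 ± 0.07 in Trpm5-/- and 1.47 ± 0.07 in wild-type cells. Of its exon bases 30.5% also lie in exons of Gm16279 on the opposite strand, whose part in these values was not tested. Mrpl36, a short protein of the large subunit (chr13:73328513-73332178, plus strand), had 183 and 175 FPKM with LPS against 82.2 and 82.4 in Trpm5-/- cells, and 180.2 and 189 against 75.7 and 68.8 in wild-type cells. Mrpl17, a large subunit protein of bacterial origin, was less abundant, at 45.9 and 41.2 FPKM with LPS against 14.5 and 12.9 in Trpm5-/- cells and 41.3 and 41.7 against 12.3 and 11.5 in wild-type cells. Its differences of 1.60 ± 0.09 in Trpm5-/- and 1.72 ± 0.09 in wild-type cells put a member of low level beside the most abundant ones.

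Mrps6, a small subunit protein, gave the largest LPS difference in Trpm5-/- cells, 1.78 ± 0.09, and 1.65 ± 0.09 in wild-type cells. It had 145 and 130.5 FPKM with LPS against 39.2 and 39.6 without stimulus in Trpm5-/- cells, and 112 and 138 against 39.5 and 38.2 in wild-type cells. Part of this locus is shared: 10.4% of the exon bases of Mrps6 also belong to Slc5a3, a myo-inositol transporter gene on the same strand, and 19.9% to the predicted gene Gm49711. Slc5a3 had 1.81 and 1.86 FPKM with LPS against 0.583 and 0.461 without stimulus in Trpm5-/- cells, and 1.93 and 1.36 against 0.941 and 0.876 in wild-type cells, and its part in the Mrps6 values was not tested. Mrpl3, a core protein of the large subunit near the site of peptide bond formation, had 126 and 130.3 FPKM with LPS against 52.7 and 49.4 in Trpm5-/- cells, a difference of 1.31 ± 0.07. In wild-type cells it had 111 and 113 FPKM against 45.0 and 46.4, a difference of 1.28 ± 0.07.

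**Figure D2:**
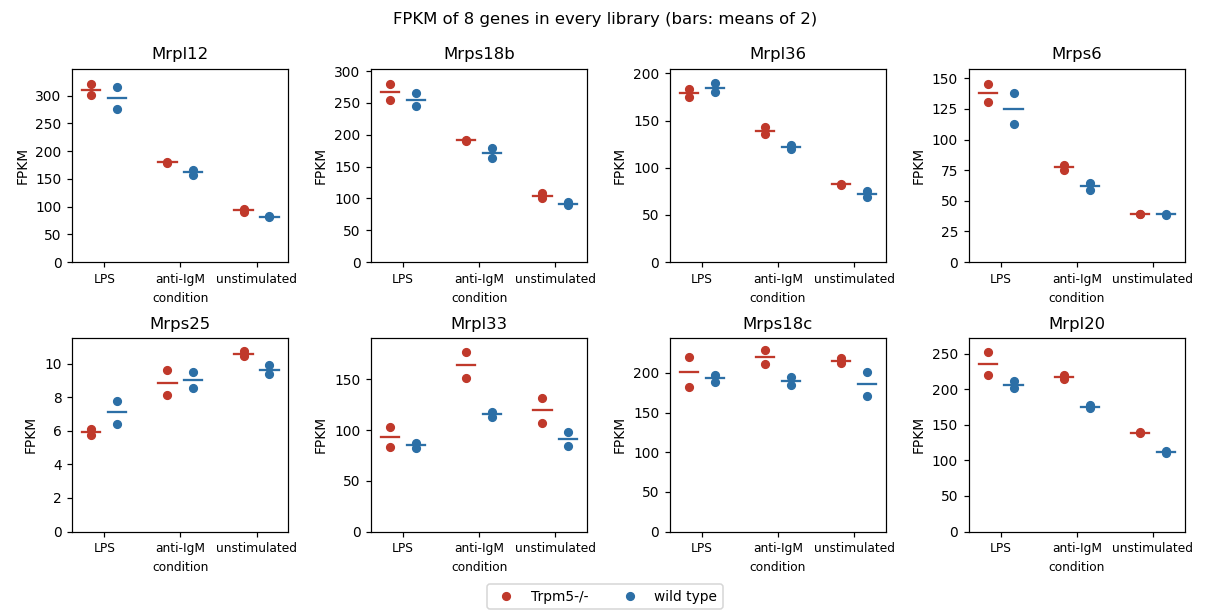
FPKM of 8 genes in every library (points) with the mean of 2 libraries (bars), by condition, Trpm5-/- in red left of wild type in blue. Mrpl12, Mrps18b, Mrpl36 and Mrps6 are highest with LPS in both genotypes, Mrps25 is lowest with LPS, Mrpl33 is highest with anti-IgM, Mrps18c keeps its level between 171 and 229.5 FPKM, and Mrpl20 is higher in Trpm5-/- than in wild-type libraries of each condition.

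A few genes fell with LPS. Mrps25, a small subunit protein (chr6:92169525-92184033, minus strand), had 5.74 and 6.12 FPKM with LPS against 10.7 and 10.4 without stimulus in Trpm5-/- cells, a difference of -0.74 ± 0.13 (limma, adjusted p = 0.00041). Wild-type cells held 6.41 and 7.79 FPKM with LPS against 9.36 and 9.92, a difference of -0.40 ± 0.13 (limma, adjusted p = 0.017). The wild-type call was lost without WT LPS replicate 1 (-0.28, adjusted p = 0.13) and without WT unstimulated replicate 2 (-0.36, adjusted p = 0.080), and after quantile normalization, a scaling that makes the libraries' distributions of values identical (-0.14, adjusted p = 0.35). Of the exon bases of Mrps25, 69.8% also lie in exons of Nr2c2, a nuclear receptor gene on the opposite strand, and the library kit does not mark strand, so reads of the 2 genes cannot be told apart there. Nr2c2 was called lower with LPS too, at 2.23 and 2.72 FPKM against 5.91 and 5.15 in Trpm5-/- cells and 2.23 and 3.41 against 6.05 and 6.38 in wild-type cells.

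The other calls downward with LPS came in 1 genotype each, and for none of these genes was the interaction of genotype and LPS called. Mrpl34, a large subunit protein, had 55.5 and 53.5 FPKM with LPS against 62.4 and 63.1 in Trpm5-/- cells, a difference of -0.20 ± 0.09 (limma, adjusted p = 0.068). Wild-type cells held 46.9 and 54.0 FPKM against 72.6 and 61.3, a difference of -0.40 ± 0.09 (limma, adjusted p = 0.0024). Mrps16, a small subunit protein, had 98.1 and 78.2 FPKM with LPS against 113 and 136 in Trpm5-/- cells (-0.50 ± 0.12), and 109 and 105 against 125 and 109 in wild-type cells (-0.13 ± 0.12, not called). Mrpl33, a large subunit protein (chr5:31596935-31664384, plus strand), had 103 and 83 FPKM with LPS against 132 and 107 in Trpm5-/- cells, a difference of -0.36 ± 0.13 (limma, adjusted p = 0.028). That call was lost without KO unstimulated replicate 1 (-0.21, adjusted p = 0.22) and without KO LPS replicate 2 (-0.21, adjusted p = 0.22). Wild-type cells held 87.1 and 82.7 FPKM of Mrpl33 with LPS against 84.3 and 98.0.

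Anti-IgM also raised most of the 77 genes in both genotypes. In Trpm5-/- cells 53 members were called higher and 1 lower, where 26.9% and 23% of all tested genes were called higher and lower. In wild-type cells 53 were called higher and 1 lower as well, against 27.7% and 20.9% of all tested genes, and 49 were called higher in both genotypes. The median difference was 0.39 in Trpm5-/- and 0.40 in wild-type cells, beside -0.00 and 0.02 over all tested genes, and no member reached 2-fold on the FPKM + 1 scale. Nearest to it was Mrpl17, a large subunit protein, at 25.7 and 23.9 FPKM with anti-IgM against 12.3 and 11.5 without stimulus in wild-type cells. Mrpl12 again had the smallest p, with differences of 0.94 ± 0.07 in Trpm5-/- cells (limma, adjusted p = 1.6e-06) and 0.97 ± 0.07 in wild-type cells (limma, adjusted p = 1.2e-06). Mrps18b (0.87 ± 0.07 in Trpm5-/- and 0.90 ± 0.07 in wild-type cells) and Mrpl36 (0.75 ± 0.06 in either genotype) followed. Mrps6 differed by 0.96 ± 0.09 in Trpm5-/- cells, at 75.3 and 79.4 FPKM against 39.2 and 39.6, and by 0.65 ± 0.09 in wild-type cells, at 64.5 and 59.1 FPKM against 39.5 and 38.2. That gap between the genotypes was not called (interaction 0.30 ± 0.13, limma, adjusted p = 0.61).

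Mrpl49 was the 1 member called lower with anti-IgM in each genotype. It had 28.4 and 30.8 FPKM with anti-IgM against 34.0 and 39.3 in Trpm5-/- cells (-0.30 ± 0.11, limma, adjusted p = 0.049), and 34.4 and 26.8 against 40.1 and 38.5 in wild-type cells (-0.36 ± 0.11, limma, adjusted p = 0.022). The Trpm5-/- call was lost without KO unstimulated replicate 2 (-0.20, adjusted p = 0.27), without KO antiIgM replicate 1 (-0.24, adjusted p = 0.21) and without KO antiIgM replicate 2 (-0.35, adjusted p = 0.078). The wild-type call was lost without WT antiIgM replicate 2 (-0.19, adjusted p = 0.19), without WT unstimulated replicate 1 (-0.33, adjusted p = 0.095) and without WT unstimulated replicate 2 (-0.39, adjusted p = 0.057).

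LPS and anti-IgM were also compared directly. In Trpm5-/- cells 32 members were called higher and 8 lower with LPS than with anti-IgM, against 28.3% and 23.6% of all tested genes. In wild-type cells 43 were called higher and 5 lower, against 27.7% and 25% of all tested genes. All 32 of the first group were among the 43 of the second. The median difference was 0.23 in Trpm5-/- and 0.27 in wild-type cells, beside 0.02 and 0.00 over all tested genes. After quantile normalization 23 were higher and 17 lower in Trpm5-/- cells and 27 and 11 in wild-type cells. Mrpl45, which lies at the exit of the peptide tunnel and tethers the ribosome to the inner membrane, was called with LPS and not with anti-IgM. It had 52.9 and 47.1 FPKM with LPS, 25.4 and 24.5 with anti-IgM, and 26.4 and 27.3 without stimulus in Trpm5-/- cells. In wild-type cells it had 49.5 and 53.1 FPKM with LPS, 23.4 and 26.1 with anti-IgM, and 22.2 and 22.1 without stimulus. Anti-IgM against unstimulated gave -0.10 ± 0.08 in Trpm5-/- and 0.15 ± 0.08 in wild-type cells, neither called. LPS minus anti-IgM came to 0.97 ± 0.08 in Trpm5-/- and 1.02 ± 0.08 in wild-type cells. Mrpl50, a large subunit protein, gave the largest such difference among the 77 in both genotypes, 0.99 ± 0.11 in Trpm5-/- cells, where it had 63.4 and 70.4 FPKM with LPS against 28.8 and 38.1 with anti-IgM. Wild-type cells held 60.5 and 56.6 FPKM of Mrpl50 with LPS against 27.3 and 28.1 with anti-IgM. For Mrps7, a protein of the small subunit's head, the difference was 0.76 ± 0.07 in Trpm5-/- and 0.66 ± 0.07 in wild-type cells.

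Mrpl28, Mrpl33, Mrpl39 and Mrps36 were the 4 members called lower with LPS than with anti-IgM in both genotypes, out of 8 such calls in Trpm5-/- and 5 in wild-type cells. Mrpl33 had 103 and 83 FPKM with LPS against 152 and 177 with anti-IgM in Trpm5-/- cells, a difference of -0.82 ± 0.13. In wild-type cells it had 87.1 and 82.7 FPKM against 113 and 118, a difference of -0.44 ± 0.13, and the wild-type call was lost without WT LPS replicate 2 (-0.40, adjusted p = 0.074) and without WT antiIgM replicate 2 (-0.41, adjusted p = 0.070). Mrpl28, a large subunit protein, had 57.5 and 61.8 FPKM with LPS against 66.6 and 69.4 with anti-IgM in Trpm5-/- cells and 56.3 and 57.3 against 71.7 and 71.3 in wild-type cells. Mrpl39 had 46.5 and 46.1 FPKM against 57.2 and 58.3 in Trpm5-/- cells and 42.0 and 44.0 against 47.5 and 49.0 in wild-type cells. Mrps36, the dehydrogenase subunit, had 128 and 107 FPKM with LPS against 155 and 152 with anti-IgM in Trpm5-/- cells (-0.39 ± 0.09). In wild-type cells it had 113 and 108 FPKM against 143 and 122 (-0.25 ± 0.09), a call lost without WT LPS replicate 1 (adjusted p = 0.070), without WT LPS replicate 2 (adjusted p = 0.15) and without WT antiIgM replicate 1 (adjusted p = 0.27).

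Mrpl54, a large subunit protein, was among those called lower with LPS in Trpm5-/- cells, at 152 and 119 FPKM against 186 and 202 with anti-IgM (-0.52 ± 0.12). Wild-type cells held 140.2 and 140.0 FPKM of Mrpl54 against 176 and 168 (-0.29 ± 0.12, limma, adjusted p = 0.061).

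**Figure D3:**
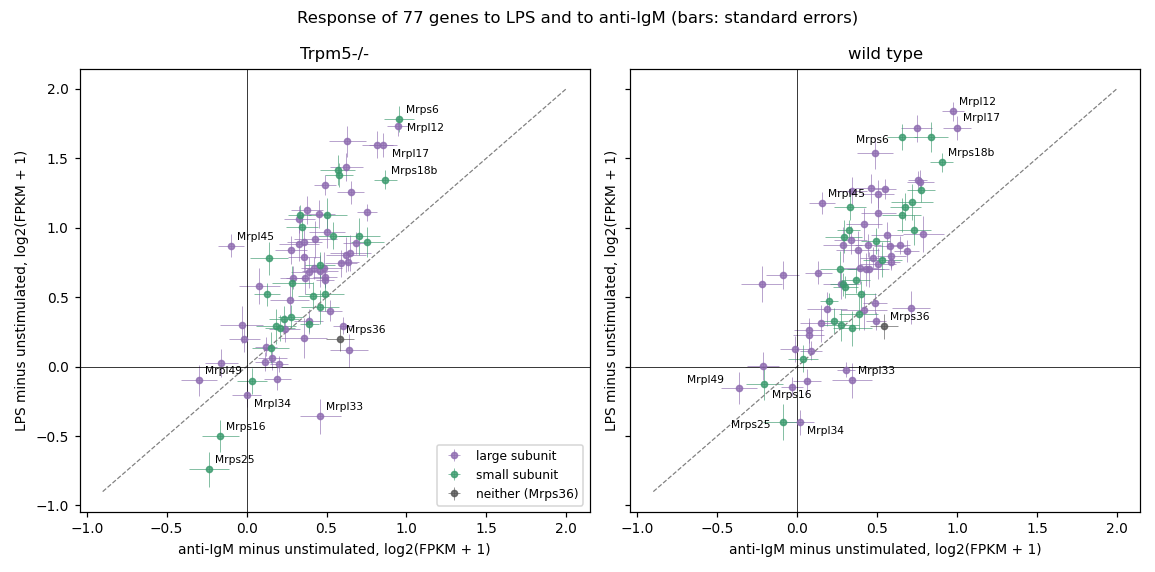
Difference of each of the 77 genes from unstimulated cells with anti-IgM (x axis) and with LPS (y axis), both on the log2(FPKM + 1) scale with standard errors, in Trpm5-/- (left) and wild-type cells (right), coloured by subunit. Both axes use the same unstimulated libraries; most points lie above the dashed line of equal differences, with Mrpl33 and Mrps36 below it in both panels.

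Both subunits were called higher in most of their members. With LPS 37 of 50 large subunit genes and 21 of 26 small subunit genes were called higher in Trpm5-/- cells (medians 0.70 and 0.56), and 39 of 50 and 22 of 26 in wild-type cells (medians 0.75 and 0.74). With anti-IgM the counts were 36 of 50 and 16 of 26 in Trpm5-/- cells and 33 of 50 and 19 of 26 in wild-type cells. Over all tested genes 34.8% were called higher with LPS in Trpm5-/- and 35.0% in wild-type cells, and 26.9% and 27.7% with anti-IgM. The Mrps18 paralogs were called differently. Mrps18a, the large subunit paralog, differed with LPS by 0.89 ± 0.08 in Trpm5-/- and 0.83 ± 0.08 in wild-type cells, and Mrps18b by the values given above. Mrps18c, the most abundant of the paralogs without stimulus, had 219.6 and 183 FPKM with LPS, 212 and 229.5 with anti-IgM, and 219 and 212 without stimulus in Trpm5-/- cells. In wild-type cells it had 198 and 189 FPKM with LPS, 185 and 196 with anti-IgM, and 202 and 171 without stimulus. Within each genotype all of these ranges overlapped, and its LPS differences of -0.10 ± 0.10 in Trpm5-/- and 0.06 ± 0.10 in wild-type cells were not called. Mrps12, a protein of the decoding centre, had 87.9 and 88.3 FPKM with LPS against 56.4 and 67.2 in Trpm5-/- cells (0.51 ± 0.10), and 85.2 and 87.1 against 55.8 and 64.2 in wild-type cells (0.52 ± 0.10). Mrps30 had 117 and 105 FPKM with LPS against 49.5 and 50.7 in Trpm5-/- cells (1.13 ± 0.10), and 104 and 100.2 against 48.4 and 37.4 in wild-type cells (1.24 ± 0.10).

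Among the 4 comparisons of a stimulus with unstimulated cells, 7 members were called in none and 4 more only downward. Neither count was made over all tested genes, so whether 7 is few or many is not known. The 7 were Mrpl4, Mrpl10, Mrpl18, Mrpl24, Mrpl43, Mrpl53 and Mrps18c, named here after their values were seen. Mrpl10 binds Mrpl12 at the base of the stalk, and the differences of Mrpl12 are given above. Mrpl18 shares 10.1% of its exon bases, on the opposite strand, with Tcp1, a chaperonin subunit gene called higher with LPS by 1.39 ± 0.06 in Trpm5-/- and 1.65 ± 0.06 in wild-type cells, where Mrpl18 differed by 0.03 in Trpm5-/- and -0.14 in wild-type cells. For Mrpl24, Mrpl43 and Mrpl53, 26.3%, 33.4% and 88.0% of exon bases are shared with another gene. In all, 32 of the 77 share exon bases with another annotated gene, and pseudogene copies of Mrpl23, Mrpl48 and Mrps36 are annotated, so their values are uncertain to the extent that reads were split. Across the 77 genes the LPS difference had a Spearman rho of -0.31 in Trpm5-/- and -0.25 in wild-type cells with the unstimulated FPKM, which also enters the difference. With transcript length it was 0.29 in Trpm5-/- and 0.20 in wild-type cells. For the anti-IgM difference the rho with unstimulated FPKM was 0.03 in Trpm5-/- and -0.04 in wild-type cells. Its rho with transcript length was -0.12 in Trpm5-/- and -0.09 in wild-type cells. These describe genes of the same libraries and carry no test.

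Promoters are shown for 5 genes chosen by rule. Mrpl12, Mrpl36 and Mrps18b had the smallest p with LPS in wild-type cells among members called in all 4 stimulus comparisons. Mrpl33 and Mrpl20 had the largest genotype differences averaged over the 3 conditions. Each line gives the 250 bases before the RefSeq start (GRCm38.p6, written 5' to 3' on the strand of the gene). Capitals mark matches to 4 motifs searched on both strands: the E-box CACGTG that MYC and related factors bind, the NRF1 motif of GCGCA and GCGC separated by 1 base of any kind, CCGGAAG of ETS factors such as GABP, and AAGATGG of YY1.

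Mrpl12, chr11:120484387-120484636, plus strand: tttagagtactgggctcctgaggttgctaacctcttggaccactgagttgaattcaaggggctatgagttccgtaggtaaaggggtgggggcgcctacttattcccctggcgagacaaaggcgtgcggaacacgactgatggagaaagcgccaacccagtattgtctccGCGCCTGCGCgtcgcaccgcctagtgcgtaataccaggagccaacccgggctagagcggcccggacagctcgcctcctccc
Mrpl36, chr13:73330759-73331008, plus strand: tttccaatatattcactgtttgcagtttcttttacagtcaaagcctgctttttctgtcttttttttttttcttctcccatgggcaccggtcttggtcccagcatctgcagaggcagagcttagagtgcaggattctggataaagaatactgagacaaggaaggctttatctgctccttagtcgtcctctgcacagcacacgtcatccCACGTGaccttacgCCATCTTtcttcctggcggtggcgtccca
Mrps18b, chr17:35916441-35916690, minus strand: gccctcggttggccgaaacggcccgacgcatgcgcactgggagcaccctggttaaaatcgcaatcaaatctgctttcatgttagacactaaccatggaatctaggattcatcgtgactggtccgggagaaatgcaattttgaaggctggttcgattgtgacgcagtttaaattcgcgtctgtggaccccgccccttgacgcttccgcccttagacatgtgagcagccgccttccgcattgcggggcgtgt
Mrpl33, chr5:31613701-31613950, plus strand: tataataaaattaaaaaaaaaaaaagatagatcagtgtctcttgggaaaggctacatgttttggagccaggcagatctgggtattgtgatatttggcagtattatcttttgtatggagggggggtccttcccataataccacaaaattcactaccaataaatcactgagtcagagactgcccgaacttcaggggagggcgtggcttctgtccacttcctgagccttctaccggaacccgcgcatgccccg
Mrpl20, chr4:155802628-155802877, plus strand: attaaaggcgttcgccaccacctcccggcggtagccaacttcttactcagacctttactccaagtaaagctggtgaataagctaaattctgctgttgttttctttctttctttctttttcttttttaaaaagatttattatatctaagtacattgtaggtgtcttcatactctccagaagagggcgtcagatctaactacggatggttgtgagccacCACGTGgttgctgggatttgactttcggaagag

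Mrpl12 held 1 NRF1 match, Mrpl36 an E-box and a YY1 match, Mrpl20 an E-box, and Mrps18b and Mrpl33 none of the 4 in these windows. A window was at hand for 68 of the 77 genes. The ETS motif was in 23.5% of them (16), against 15.8% of 8231 windows of tested genes and 7.05% of all 27025 windows. The NRF1 motif was in 14.7% (10), against 9.45% and 3.86%, the YY1 motif in 8.82% (6), against 4.68% and 4.53%, and the E-box in 7.35% (5), against 9.0% and 6.05%. Among the 22 windows of the largest LPS differences in wild-type cells 4 held the ETS motif and 4 the NRF1 motif, and among the 22 of the smallest 8 and 3 did. A match is a string of letters and shows no binding, and no match says only that the letters are not in this window. At 23 members another protein-coding gene starts on the opposite strand within 1000 bases, and for 22 of these the neighbour was tested. With LPS 18 of the 22 members were called higher in Trpm5-/- cells and 19 in wild-type cells. Of their neighbours 10 were called higher and 5 lower in Trpm5-/- cells, and 12 higher and 5 lower in wild-type cells. Over all tested genes 34.8% were called higher and 33.8% lower in Trpm5-/- cells, and 35.0% and 34.4% in wild-type cells. Mrpl36 and its neighbour Ndufs6, a complex I gene, were both called higher (Ndufs6 by 0.60 ± 0.09 in Trpm5-/- and 0.83 ± 0.09 in wild-type cells). Neighbours were found from GENCODE M21 gene starts, whereas the windows lie before RefSeq starts. The GENCODE start of Mrpl36 (chr13:73328513) lies before its printed window, so its motif matches are not where Mrpl36 and Ndufs6 meet. For Mrpl33 the GENCODE start (chr5:31596935) also lies before the printed window.

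The rest of the mitochondrial translation machinery was read from lists. Beside them, 34.8% of all tested genes were called higher and 33.8% lower with LPS in Trpm5-/- cells, and 35.0% and 34.4% in wild-type cells. Of 6 ribosomal proteins with other names (Dap3, Ptcd3, Chchd1, Aurkaip1, Gadd45gip1 and Ict1), 5 were called higher with LPS in Trpm5-/- cells and 4 in wild-type cells, with none lower. Ptcd3, a small subunit protein, had 144 and 139 FPKM with LPS against 49.5 and 45.2 in Trpm5-/- cells, and 136 and 140.5 against 39.7 and 44.1 in wild-type cells. Ict1, also called Mrpl58, rescues stalled ribosomes and had 51.4 and 41.7 FPKM with LPS against 47.5 and 44.2 in Trpm5-/- cells, and 56.0 and 48.2 against 48.9 and 38.3 in wild-type cells, with overlapping ranges in both genotypes. Of 28 assembly factors 16 were called higher and 5 lower with LPS in Trpm5-/- cells, and 17 and 4 in wild-type cells. C1qbp, an abundant matrix protein that takes part in ribosome assembly, had 813 and 759.7 FPKM with LPS against 193 and 204 in Trpm5-/- cells, and 754 and 784 against 167 and 164 in wild-type cells. Noa1, a GTPase of small subunit assembly, differed by 1.72 ± 0.07 in Trpm5-/- and 1.68 ± 0.07 in wild-type cells, while Mettl17 fell by 0.60 ± 0.09 in Trpm5-/- and by 0.54 ± 0.09 in wild-type cells. Rpusd3 fell by 1.54 ± 0.23 in Trpm5-/- and by 1.1 ± 0.23 in wild-type cells.

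Of 18 translation factors 11 were called higher and 1 lower with LPS in Trpm5-/- cells, and 10 and 3 in wild-type cells. Over all tested genes the shares were 34.8% higher and 33.8% lower in Trpm5-/- cells, and 35.0% and 34.4% in wild-type cells. Translation factors higher in both included Lrpprc and Slirp, partners that stabilise mitochondrial mRNA, and Tufm, the elongation factor. Mtif3, an initiation factor, was the 1 called lower in Trpm5-/- cells (-0.34 ± 0.12), and Mtrf1 (-1.21 ± 0.25) and Oxa1l (-0.51 ± 0.10) were among the 3 called lower in wild-type cells. Of 20 mitochondrial aminoacyl-tRNA synthetases 5 were called higher and 4 lower in Trpm5-/- cells and 7 and 5 in wild-type cells. The shares called higher, 25% in Trpm5-/- and 35% in wild-type cells, were below or at the 34.8% and 35.0% of all tested genes. Yars2 rose by 1.5 ± 0.07 in Trpm5-/- and by 1.42 ± 0.07 in wild-type cells, and Rars2 by 1.27 ± 0.09 in Trpm5-/- and by 1.30 ± 0.09 in wild-type cells. Cars2 differed by -1.26 ± 0.13 in Trpm5-/- and -0.96 ± 0.13 in wild-type cells and was called lower in both. Of 11 genes of mitochondrial DNA transcription and replication, 4 were higher and 3 lower in Trpm5-/- cells and 4 and 2 in wild-type cells, among them Tfb2m upward (1.02 ± 0.08 in Trpm5-/- and 1.26 ± 0.08 in wild-type cells) and Mterf2 downward (-1.08 ± 0.14 in Trpm5-/- and -1.31 ± 0.14 in wild-type cells). Here too the share called higher, 36.4% in either genotype, was near that of all tested genes. Mitochondrially encoded genes were not analysed here.

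Transcription factors and coactivators known for nuclear genes of mitochondria were listed for their levels. Myc had 539 and 516 FPKM with LPS, 284 and 282 with anti-IgM, and 71.0 and 71.3 without stimulus in Trpm5-/- cells. Wild-type cells held 475 and 486 FPKM with LPS, 266 and 287 with anti-IgM, and 56.4 and 58.9 without stimulus. The order of conditions was that of the members' sums, while the members' shares with LPS and with anti-IgM overlapped in Trpm5-/- cells. Pprc1, a coactivator of NRF1 targets, had 67.9 and 78.9 FPKM with LPS against 17 and 17.7 in Trpm5-/- cells and 70.0 and 68.3 against 16.9 and 17.9 in wild-type cells. In all, 7 of 10 tested regulators were called higher and 1 lower with LPS in each genotype, the 1 being Gabpb2, a GABP subunit. Over all tested genes 34.8% were called higher and 33.8% lower in Trpm5-/- cells, and 35.0% and 34.4% in wild-type cells. Whether any of these regulators acts on the 77 genes was not tested.

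Cytosolic ribosomal proteins and nuclear genes of oxidative phosphorylation served for comparison. Over all tested genes 34.8% were called higher and 33.8% lower with LPS in Trpm5-/- cells, and 35.0% and 34.4% in wild-type cells. After quantile normalization these shares were 35.0% and 31.1% in Trpm5-/- cells, and 35.3% and 30.7% in wild-type cells. With LPS 56 of 85 cytosolic ribosomal protein genes were called higher and 1 lower in Trpm5-/- cells (median 0.38) and 66 and 1 in wild-type cells (median 0.47), but after quantile normalization the calls were 18 and 32 in Trpm5-/- cells (median -0.09) and 28 and 26 in wild-type cells (median -0.02). Of 83 oxidative phosphorylation genes 43 were called higher and 12 lower in Trpm5-/- cells (median 0.24) and 51 and 10 in wild-type cells (median 0.36), and after quantile normalization 11 and 46 in Trpm5-/- cells (median -0.28) and 14 and 36 in wild-type cells (median -0.15). The 77 mitochondrial ribosomal protein genes after the same step still gave 43 higher and 15 lower with LPS in Trpm5-/- cells (median 0.33) and 46 and 10 in wild-type cells (median 0.38). With anti-IgM they gave 38 and 3 in Trpm5-/- cells (median 0.28) and 38 and 5 in wild-type cells (median 0.28). Over all tested genes the shares with anti-IgM were then 25.9% higher and 21.4% lower in Trpm5-/- cells, and 26.5% and 22.2% in wild-type cells. LPS against anti-IgM, with the calls given above, then had a median of 0.07 in Trpm5-/- cells and 0.17 in wild-type cells. The 23 and 17 calls among the 77 in Trpm5-/- cells make shares near the 25.7% higher and 23.2% lower that quantile normalization gave over all tested genes, whose median there was 0.04. For LPS and for anti-IgM against unstimulated cells the median over all tested genes was then 0.02 to 0.05. The members' medians stayed above it, while those of the other 2 lists lay below 0 under LPS. Under LPS the 18 translation factors then had medians of 0.54 in Trpm5-/- and 0.52 in wild-type cells, and the 28 assembly factors 0.39 and 0.34. The 6 ribosomal proteins with other names had 0.21 and 0.29, the 20 synthetases 0.14 and 0.26, and the 11 transcription and replication genes 0.10 and 0.05. The lists were set side by side and not tested against each other.

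**Figure D4:**
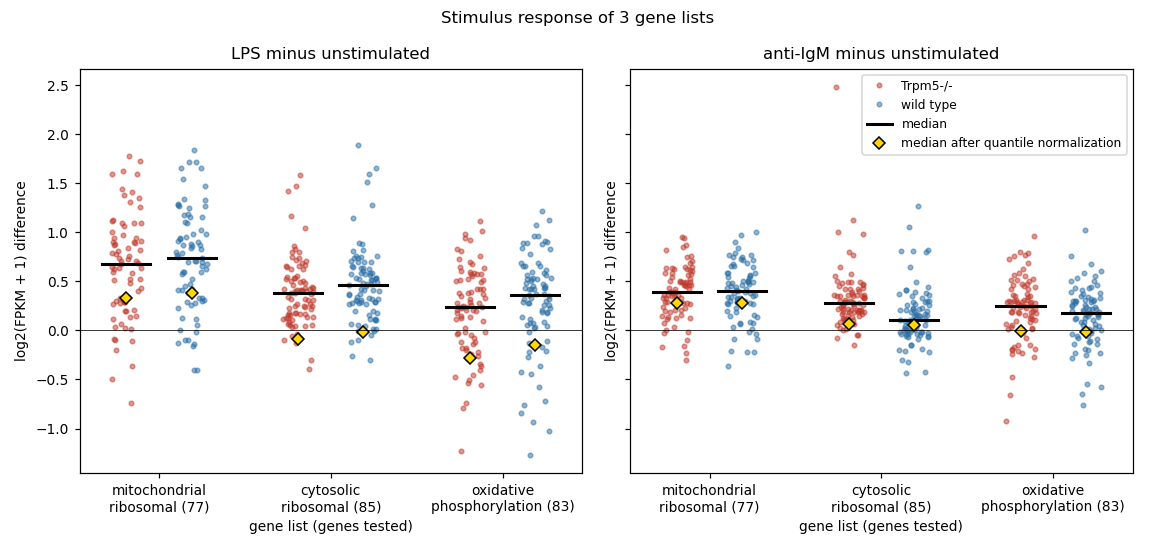
Difference from unstimulated cells, on the log2(FPKM + 1) scale, of each gene of 3 lists (points) with LPS (left) and with anti-IgM (right), Trpm5-/- in red left of wild type in blue. Black bars are list medians and yellow diamonds the medians after quantile normalization: for LPS the diamonds stay above 0 for mitochondrial ribosomal proteins (0.33 and 0.38) and lie below 0 for the other 2 lists.

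Some marker lists, of B cells and of other cell types, also differed between the conditions. The dendritic cell list (4 of 4 symbols in the files, 2 tested) summed to 70.5 to 70.9 FPKM in Trpm5-/- and 71.6 to 76.5 FPKM in wild-type LPS libraries, to 10.8 to 13.1 FPKM in Trpm5-/- and 14.3 to 14.5 in wild-type libraries with anti-IgM, and to 6.83 to 8.0 in Trpm5-/- and 8.88 to 8.91 in wild-type libraries without stimulus. Zbtb46 carried this list, with Flt3 at 5.36 to 5.45 FPKM in Trpm5-/- and 5.80 to 6.16 in wild-type libraries with LPS, 1.60 to 1.73 in Trpm5-/- and 1.93 in wild-type libraries with anti-IgM, and 0.983 to 1.37 in Trpm5-/- and 1.27 to 1.75 in wild-type libraries without stimulus. Of the same list, Xcr1 and Siglech stayed at or below 0.498 FPKM in every library. The 6 pan-B markers summed to 2751 to 2813 FPKM in Trpm5-/- and 3375 to 3434 FPKM in wild-type LPS libraries, to 1632 to 1663 in Trpm5-/- and 1895 to 1907 in wild-type libraries with anti-IgM, and to 5131 to 5142 in Trpm5-/- and 5374 to 5618 in wild-type libraries without stimulus. The T cell list (6 of 7 in the files, 1 tested), carried by Lck, summed over both genotypes to 13.6 to 15.6 FPKM with LPS, 52.5 to 66.9 with anti-IgM and 23.3 to 25.5 without stimulus. Stromal or endothelial markers (5 of 5, 1 tested) summed to 12.7 to 15.2 FPKM over the LPS libraries, 3.62 to 6.37 over the anti-IgM libraries and 32.6 to 48.4 over the unstimulated ones. Macrophage and monocyte markers (8 of 8, 4 tested) summed to 10.3 to 14.5, 8.94 to 15.3 and 16.4 to 28.6 FPKM in the same order of conditions. Neutrophil markers did not exceed 2.78 FPKM. The part of these markers in the members' differences was not tested.

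The genotype difference was small beside the stimulus difference. In unstimulated cells 1 member was called higher in Trpm5-/- cells and 0 were called lower, where 4.45% and 1.66% of all tested genes were called in those directions. With anti-IgM it was again 1 higher and 0 lower, against 1.91% and 1.92% of all tested genes. With LPS limma called 0 higher and 0 lower, against 1.82% and 1.78% of all tested genes. An unadjusted p under 0.05 was found for 6 of the 77 with LPS and for 16.7% of all tested genes. It was found for 17 of the 77 without stimulus and for 13 with anti-IgM, where the share of all tested genes was not counted.

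Most members nevertheless lay slightly higher in Trpm5-/- cells. Without stimulus 66 of 77 had a difference above 0, where 54.6% of all tested genes did, and the median difference was 0.12 beside 0.02 over all genes. With anti-IgM it was 64 of 77, beside 49.3%, with a median of 0.12 beside -0.00. With LPS it was 53 of 77, beside 54.5%, with a median of 0.06 beside 0.02, and without KO LPS replicate 1 that median turned to -0.02. After quantile normalization the members' medians were 0.02 with LPS, 0.06 with anti-IgM and 0.10 without stimulus. The comparison lists were shifted too: 82 of 85 cytosolic ribosomal protein genes lay above 0 with anti-IgM (median 0.21) and 74 without stimulus (median 0.05), but 25 with LPS (median -0.03). Of 83 oxidative phosphorylation genes 72 lay above 0 with anti-IgM (median 0.14), 64 without stimulus (median 0.08) and 32 with LPS (median -0.03). In the Trpm5-/- LPS group 61 of the 77 were higher in replicate 1 than in replicate 2, whereas 51.2% of all tested genes were. Among unstimulated wild-type libraries 54 of 77 were higher in replicate 1, beside 49.2% of all tested genes. The median of the members' replicate differences, 0.12 in Trpm5-/- LPS cells and 0.08 in unstimulated wild-type cells, was of the size of the genotype differences. Both Trpm5-/- libraries lay above both wild-type libraries for 39 members without stimulus (28.1% of all tested genes), 37 with anti-IgM (25.8%) and 23 with LPS (26.5%), and below both for 5 (21.4%), 3 (25.8%) and 10 (19.3%).

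**Figure D5:**
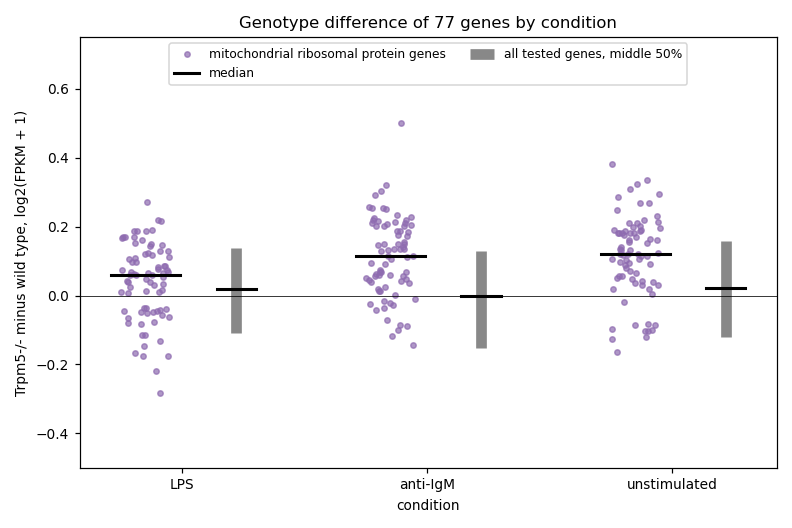
Trpm5-/- minus wild-type difference on the log2(FPKM + 1) scale for each of the 77 genes (points) with their median (bar), beside the middle 50% (grey) and median of all 10797 tested genes, in 3 conditions. The members' median lies at 0.06 with LPS, 0.12 with anti-IgM and 0.12 without stimulus.

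Mrpl20 (chr4:155802878-155809975, plus strand), a large subunit protein whose bacterial counterpart binds ribosomal RNA early in assembly, was the member called higher in unstimulated cells and also the one called with anti-IgM. It had 252 and 220.0 FPKM in Trpm5-/- against 202 and 211 in wild-type cells with LPS. With anti-IgM it had 214 and 220.4 FPKM in Trpm5-/- against 174 and 178 in wild-type cells, and without stimulus 139 and 139.4 in Trpm5-/- against 111 and 114 in wild-type cells. The 2 genotypes did not overlap in any of the 3 conditions. The differences were 0.19 ± 0.06 with LPS (limma, adjusted p = 0.15), 0.30 ± 0.06 with anti-IgM (limma, adjusted p = 0.028) and 0.31 ± 0.06 without stimulus (limma, adjusted p = 0.021). The last 2 calls were lost without any 1 of the libraries compared, with adjusted p of 0.11 to 0.16 for anti-IgM and 0.076 to 0.11 without stimulus, the difference staying at 0.28 to 0.33 for anti-IgM and 0.29 to 0.32 without stimulus. Without KO LPS replicate 2 the LPS difference was 0.29 and was called (adjusted p = 0.044).

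Next in order of p, and not called, were Mrpl47 with LPS (0.27 ± 0.10, limma, adjusted p = 0.19), Mrpl39 with anti-IgM (0.25 ± 0.06, adjusted p = 0.054) and Mrpl45 without stimulus (0.27 ± 0.08, adjusted p = 0.089). Mrps16 (-0.28 ± 0.12) and Mrps21 (-0.15 ± 0.06) led downward with LPS, Mrps5 (-0.14 ± 0.09) and Mrpl28 (-0.07 ± 0.06) with anti-IgM, and Mrpl1 (-0.17 ± 0.10) and Mrpl18 (-0.10 ± 0.07) without stimulus, none of them called.

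Averaged over the 3 conditions, 9 members were called higher and 0 lower in Trpm5-/- cells, where 10.2% and 5.88% of all tested genes were called and 53.2% had a difference above 0. Above 0 were 65 of the 77, with a median of 0.10 (0.07 after quantile normalization). The share called is close to that of all genes. The 9 were Mrpl20 (0.27 ± 0.04, limma, adjusted p = 0.0011), Mrpl33 (0.33 ± 0.07), Mrpl37 (0.22 ± 0.06), Mrpl22 (0.17 ± 0.05), Mrpl39 (0.17 ± 0.04), Mrpl42 (0.16 ± 0.04), Mrpl3 (0.15 ± 0.04), Mrps18b (0.14 ± 0.04) and Mrpl12 (0.14 ± 0.04), 8 of them of the large subunit. Mrpl33 had 103 and 83 FPKM in Trpm5-/- against 87.1 and 82.7 in wild-type cells with LPS. With anti-IgM it had 152 and 177 FPKM in Trpm5-/- against 113 and 118 in wild-type cells, and without stimulus 132 and 107 in Trpm5-/- against 84.3 and 98.0 in wild-type cells, so that the genotypes overlapped with LPS only. Leaving out 1 library gave 3 to 17 calls: 5 without KO unstimulated replicate 1, 4 without KO unstimulated replicate 2, 17 without WT unstimulated replicate 1, 3 without WT unstimulated replicate 2, 3 without KO LPS replicate 1, 4 without WT LPS replicate 1, 3 without KO antiIgM replicate 2 and 4 without WT antiIgM replicate 2. Mrpl22 was lost in 9 of these 12 fits, while Mrpl20, Mrpl33 and Mrpl39 were called in each of the 12.

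Cell markers also differed between the genotypes. The marginal zone list (8 of 8 symbols in the files and tested) summed to 650.3 to 691 FPKM in the 6 Trpm5-/- libraries and to 421 to 526 FPKM in the 6 wild-type libraries. Cd9 carried the higher sum, at 374 to 472 FPKM in Trpm5-/- and 240.5 to 284 in wild-type libraries. Plxnd1, Dtx1, Cd36, S1pr3 and Myof also lay higher in both Trpm5-/- libraries than in both wild-type libraries of each condition. With LPS Plxnd1 had 15.49 and 15.52 FPKM in Trpm5-/- against 2.85 and 3.66 in wild-type libraries, and Dtx1 48.3 and 50.9 against 31.2 and 32.3. Cr2, the complement receptor CD21 that marks these cells, lay the other way, at 70.3 and 75.1 FPKM in Trpm5-/- against 86.4 and 87.4 in wild-type libraries with LPS and at 51.6 and 52.5 in Trpm5-/- against 58.5 and 57.1 in wild-type libraries with anti-IgM. Cd1d1 had 2.09 and 3.5 FPKM in Trpm5-/- against 5.12 and 3.51 in wild-type libraries with anti-IgM. With LPS it had 2.65 and 2.87 FPKM in Trpm5-/- against 2.58 and 2.31 in wild-type libraries. The follicular list (3 of 3, all tested) summed to 719 to 719.6 FPKM in Trpm5-/- against 1161 to 1167 in wild-type libraries with LPS, 119.7 to 127 in Trpm5-/- against 200.5 to 219 in wild-type libraries with anti-IgM, and 312 to 320.0 in Trpm5-/- against 419 to 419.7 in wild-type libraries without stimulus. Erythroid markers (5 of 6 in the files, all 5 tested) summed to 101 to 491 FPKM in Trpm5-/- and 343 to 681 FPKM in wild-type libraries. Their part in the members' genotype differences was not tested.

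Whether the response to a stimulus differed between the genotypes was tested as an interaction. With LPS limma called 0 of the 77 members (0.102% of all tested genes in either direction), 5 had an unadjusted p under 0.05 (10.3% of all tested genes), and 27 lay above 0 (46.8% of all tested genes), with a median of -0.08 beside -0.02. With anti-IgM it called 0 members (0.0278% of all tested genes), and 3 had an unadjusted p under 0.05 (7.94% of all tested genes), with a median of -0.00 beside -0.04. Mrpl23, the member with the smallest interaction p with LPS, had 229 and 194 FPKM with LPS against 179 and 158 without stimulus in Trpm5-/- cells, and 243 and 234 against 146 and 128 in wild-type cells. The interaction was -0.47 ± 0.13 (limma, adjusted p = 0.28). Mrpl36 followed with LPS (-0.23 ± 0.09, adjusted p = 0.40), and with anti-IgM Mrpl1 (0.37 ± 0.14, adjusted p = 0.57) and Mrpl45 (-0.25 ± 0.12, adjusted p = 0.64) were among the smallest p. Mrpl23 is also the member nearest to Trpm5: it lies at chr7:142532686-142540747 on the plus strand (mm10, GENCODE M21), and 528406 bases separate it from the targeted gene. Its genotype difference was -0.18 ± 0.09 with LPS, 0.09 ± 0.09 with anti-IgM and 0.29 ± 0.09 without stimulus (limma, adjusted p = 0.092), with separate ranges in all 3 conditions and none called.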

How the data were processed

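RNA-seq of 12 libraries was read from 1 deposited table per library of FPKM values made by the authors. The unit is not written in the tables and was taken as FPKM from their values and from Cufflinks (2.2.1), which the submitters' processing notes name with TopHat2 (2.0.13), Bowtie2 (2.2.3), SAMtools (0.1.19) and build mm10. The sources used here give neither the annotation nor read totals. FPKM are no counts, so log2(FPKM + 1) was fitted with limma (3.58.1, R 4.3.3) as group means over all 12 libraries with a trend in the variance, for genes that reached 1 FPKM in 2 or more libraries. A difference on this scale understates that of low genes. Adjustment ran over all 10797 genes, and the model was tested on simulated data. The noise there was drawn separately for each gene and library. That test hence cannot show how the model handles a shift shared by many genes of 1 library.

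Members and lists were chosen with earlier results of these data known, and no list was tested as a set. Genes named from a comparison were, by rule, the 4 called members of smallest p in each direction, or the 2 of smallest p where fewer than 2 were called; added were the 3 of highest and lowest level per group, members of particular role, those near Trpm5, and the 2 leading calls of each other list. Further genes named for a contrast in level or an overlap were chosen after their values were seen. One symbol of the translation factor list was dropped because the reference does not annotate it with that role. Exon overlaps and positions are from GENCODE M21 (mm10), and promoters from RefSeq GRCm38.p6. Alternatives were another pseudocount, other filters, median-ratio scaling, quantile normalization, a replicate block, no variance trend, the compared libraries alone and each library left out.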

Additional observations from a re-analysis of the deposited data

How the results depend on the processing

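The counts of members called in either direction for LPS or anti-IgM against unstimulated cells and for LPS against anti-IgM stayed within 1.5 times the reported ones under every alternative run. Quantile normalization moved their split: higher with LPS than with anti-IgM in wild-type cells were 27 (43 reported), and lower were 15 (3) for LPS in Trpm5-/- and 10 (2) in wild-type cells, 3 (1) for anti-IgM in Trpm5-/- and 5 (1) in wild-type cells, and 17 (8) for LPS against anti-IgM in Trpm5-/- and 11 (5) in wild-type cells. Leaving out 1 library gave 57 to 61 for LPS in Trpm5-/- and 56 to 62 in wild-type cells (61 and 64 with all libraries), 41 to 49 and 41 to 48 for anti-IgM (54 in each), and 35 to 42 and 36 to 41 for LPS against anti-IgM (40 and 48).

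The genotype counts were less steady. For unstimulated cells (1 reported), 0 members were called without the variance trend and 0 with the compared libraries alone, and 0 to 1 with a library left out. For LPS (0 reported), quantile normalization called 1, Mrps21 downward (-0.22, limma, adjusted p = 0.046), and leaving out a library called 0 to 1. For anti-IgM (1 reported), 2 were called with no filter and 2 with a mean of at least 5 FPKM, 0 after quantile normalization, 0 without the trend, 0 with the compared libraries alone and 0 with any library left out. For the mean of 3 conditions (9 reported), 4 were called with no filter, 3 after quantile normalization, 3 without the trend, and 3 to 17 with a library left out. The cause was not tested. With the compared libraries alone, the mean of 3 conditions was not run.

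Same-numbered libraries deviated from their group means with correlations of -0.17 to 0.20 over 15 pairs of groups, above 0.1 in 3 and below -0.1 in 2. With 2 libraries per group these values cannot show whether libraries of the same number share mice or batches. A replicate block called 2 members in unstimulated cells.

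Over the 67 named results and all alternatives, none changed direction while 54 values lost a call and 8 gained one. With 2 libraries per group there are 6 residual degrees of freedom, and with unknown read totals the counting error of low genes such as Mrps25 cannot be given.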

Other observations

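For 8 members the genotype difference pointed in opposite directions in 2 conditions with no overlap of libraries in either: Mrpl23, Mrpl28, Mrps5, Mrps9, Mrps16, Mrps21, Mrps25 and Mrps33. That is 10.4% of the members, beside 12.7% of all tested genes with such a pair of conditions. The interaction was called for none of them by limma, and the smallest adjusted p was 0.18, for Mrps21 in LPS against anti-IgM (-0.36 ± 0.08). That comparison, chosen after seeing the data, called 12 of all tested genes and 0 of the 77 members, of which 6 (7.79%) had an unadjusted p under 0.05, beside 9.8% of all tested genes.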
